A study of Mus musculus with 40 samples.

Results

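The 10 inflammatory cytokine genes Tnf, Il1a, Il1b, Il6, Il10, Il12b, Il15, Il18, Il33 and Csf1 were followed through RNA-seq counts of mouse hippocampus. They were taken by gene symbol from a table of 40853 genes, and all 10 reached 20 counts or more when the mice were added up, so that they were tested among 28449 genes. Deletion of H2A.Z in neurons was accompanied by higher levels of 8 of the 10 genes in females and of all 10 in males. Levels in mice that also received H2A.Z.1 lay between those of the deleted and the control mice for most of these genes.

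Cytokines are secreted proteins through which immune cells, glia and vessel cells signal to each other. Tnf, Il1a and Il1b act early in inflammation and engage receptors that activate NF-kB, whereas Il6, Il10 and Il12b are typically made in response to such signals. Il15 and Il18 sustain and activate T cells and natural killer (NK) cells, Il33 is a nuclear protein released from damaged glia, and Csf1 keeps microglia alive. Il1b and Il18 are made as precursors that caspase-1 cuts in inflammasomes, so that their RNA does not show how much active protein was released.

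RNA came from hippocampal tissue of 40 mice, with 1 library per mouse. All mice had virus injected into the hippocampus. Myc mice received a 3xMyc vector without Cre and are labelled WT for genotype, whereas the study's methods describe mice floxed for both H2A.Z genes. H2A.Z KO mice, labelled KD, received 3xMyc together with Cre under the synapsin promoter, which acts in neurons and not in the glia and immune cells that make most cytokines. The replacement mice received the same Cre with Myc-tagged H2A.Z.1 under the CMV promoter, which is not restricted to neurons. H2A.Z.1 was unchanged (H2A.Z.1 WT) or had 3 of its N-terminal lysines exchanged. These became alanine (H2A.Z.1 KA, which cannot be acetylated at these positions) or glutamine (H2A.Z.1 KQ, which resembles the acetylated state). Per the methods, the Myc vector was mixed with PBS to match titer and volume, so that Myc mice received fewer vectors. Any comparison with Myc therefore also compares mice with Cre against mice without it, and a mix of vectors against the Myc vector alone. If the label holds, the genotypes differ as well. The effects of genotype, Cre, the added vector and deletion cannot be told apart there. The females numbered 3 in the Myc group, 4 in the KO group, 4 each in the WT and KA replacement groups and 3 in the KQ group, and the males 4, 4, 5, 4 and 5 in the same order (Myc, KO, WT, KA, KQ). The age of the mice was not given in the sources used here. In bulk tissue, fewer cells of a type and less RNA per cell cannot be told apart.

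The upstream sequence of 3 genes is shown, Tnf and Il1b because they rose in both sexes and Il6 as the member with the fewest counts next to Il10. Each sequence holds the 250 bases before the RefSeq start of the GRCm38.p6 table, and each was found by exact match at one place in GRCm39. Tnf lies at chr17:35420984-35421233 on the minus strand, Il1b at chr2:129213060-129213309 on the minus strand and Il6 at chr5:30217862-30218111 on the plus strand, and none of the 3 windows holds exon bases of its gene. Capitals mark matches, on either strand, to TATAAA, to the AP-1 motif TGANTCA, to the NF-kB motif, to the GAS motif TTCNNNGAA or to the ISRE motif GAAANNGAAA, none of which overlap here. TGANTCA reads the same on both strands.
Tnf: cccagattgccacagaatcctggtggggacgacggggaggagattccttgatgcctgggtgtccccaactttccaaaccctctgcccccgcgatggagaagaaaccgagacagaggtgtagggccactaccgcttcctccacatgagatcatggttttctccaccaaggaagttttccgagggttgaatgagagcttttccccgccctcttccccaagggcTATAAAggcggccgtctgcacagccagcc
Il1b: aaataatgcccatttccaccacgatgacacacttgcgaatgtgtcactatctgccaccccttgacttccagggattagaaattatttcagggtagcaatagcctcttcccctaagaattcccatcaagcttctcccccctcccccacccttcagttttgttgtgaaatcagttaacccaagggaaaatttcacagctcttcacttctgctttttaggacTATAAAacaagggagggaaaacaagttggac
Il6: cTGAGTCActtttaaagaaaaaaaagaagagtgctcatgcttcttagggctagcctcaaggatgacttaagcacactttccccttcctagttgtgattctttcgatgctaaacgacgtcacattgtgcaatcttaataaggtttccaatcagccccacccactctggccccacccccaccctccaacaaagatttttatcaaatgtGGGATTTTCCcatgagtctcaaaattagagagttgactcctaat
Upstream sequence was found for 8 of the members, with 2 starts for Il33, whereas Il10 and Il15 had none in the table. TATAAA was present in 5 of the 8 genes (Tnf, Il1a, Il1b, Il18 and Il33) and in 12.4% of 32851 upstream windows of the same length. In Tnf it began at position -29 and in Il1b at position -31 relative to the start. In Il1a it began at -32, in a window that shares 206 of its 250 bases with exons of the gene. The 2 windows of Il33 had it at -203 and -29, and in Il18 it lay at -175 to -170 on the opposite strand. The NF-kB motif was matched in 2 genes (Il6 and Csf1) and in 3.9% of all windows, and the AP-1 motif in 2 genes (Il1a and Il6) and in 6.75% of all windows. No GAS or ISRE match was found in these windows, against 7.02% and 2.98% of all windows. The matches are letters in a window and were not tested for binding.

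Total counts per mouse ran from 24342921 to 45982772. Hippocampal neuron markers were present in every group, with 6 of 6 markers tested. Every pair of mice within a group differed by more than counting error (chi-square per degree of freedom of 7.52 or more), and female Myc mouse 32 differed most from the other Myc females (258 and 184, against 23.2 between mice 11 and 31). In whole tissue, H2az1 did not differ detectably between H2A.Z KO and Myc (log2 fold change -0.06 ± 0.17 SE in females and -0.05 ± 0.16 in males), and H2az2 did not either (0.28 ± 0.12, edgeR adjusted p = 0.0609, and 0.14 ± 0.11, adjusted p = 0.35), so that the deletion was not visible in these libraries. The paper reports lower H2afz (H2az1) mRNA in H2A.Z KO mice and lower H2afv (H2az2) mRNA in all Cre groups. It proposes that the small size of the loss reflects low sensitivity for a neuron-specific deletion in bulk tissue, and it reports reduced H2A.Z in cultured neurons with Cre. Ttr, the main transcript of choroid plexus, exceeded 1000 CPM in female H2A.Z KO mice 14 and 33, H2A.Z.1 WT mouse 20 and H2A.Z.1 KQ mouse 17.

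Levels are CPM, that is counts scaled to the library total with TMM factors, and only for comparisons between genes were they divided by the exon length of the gene in kb. In Myc mice, Il33 had the highest level per length (12.6 ± 1.48 CPM per kb, SD, in females and 13.8 ± 1.78 in males), followed by Il18 (8.36 ± 0.43 and 7.77 ± 0.43) and Csf1 (4.46 ± 0.7 and 4.84 ± 0.49). The other 7 genes lay at or below 0.52 CPM per kb in every Myc mouse, and Il10 and Il12b were close to absent with total counts of 0 and 1 in females and 2 and 2 in males. Among the low genes, Il1a was above Il15 in mean level, and the ranges of Il15, Il1b and Tnf over Myc females overlapped. In H2A.Z KO mice the 3 abundant genes were again Il33 (30.0 ± 10.1 and 30.5 ± 2.74), Csf1 (17.9 ± 4.68 and 16.0 ± 3.34) and Il18 (9.64 ± 0.58 and 10.6 ± 1.28), with Csf1 now above Il18. Below them Il1a, Tnf and Il12b had means of 1.38 to 2.40 CPM per kb in females and 2.32 to 2.88 in males, and their ranges over mice overlapped. Il6 was the lowest of the 10 genes in H2A.Z KO mice (0.0633 ± 0.043 and 0.0818 ± 0.0127 CPM per kb).

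**Figure D1:**
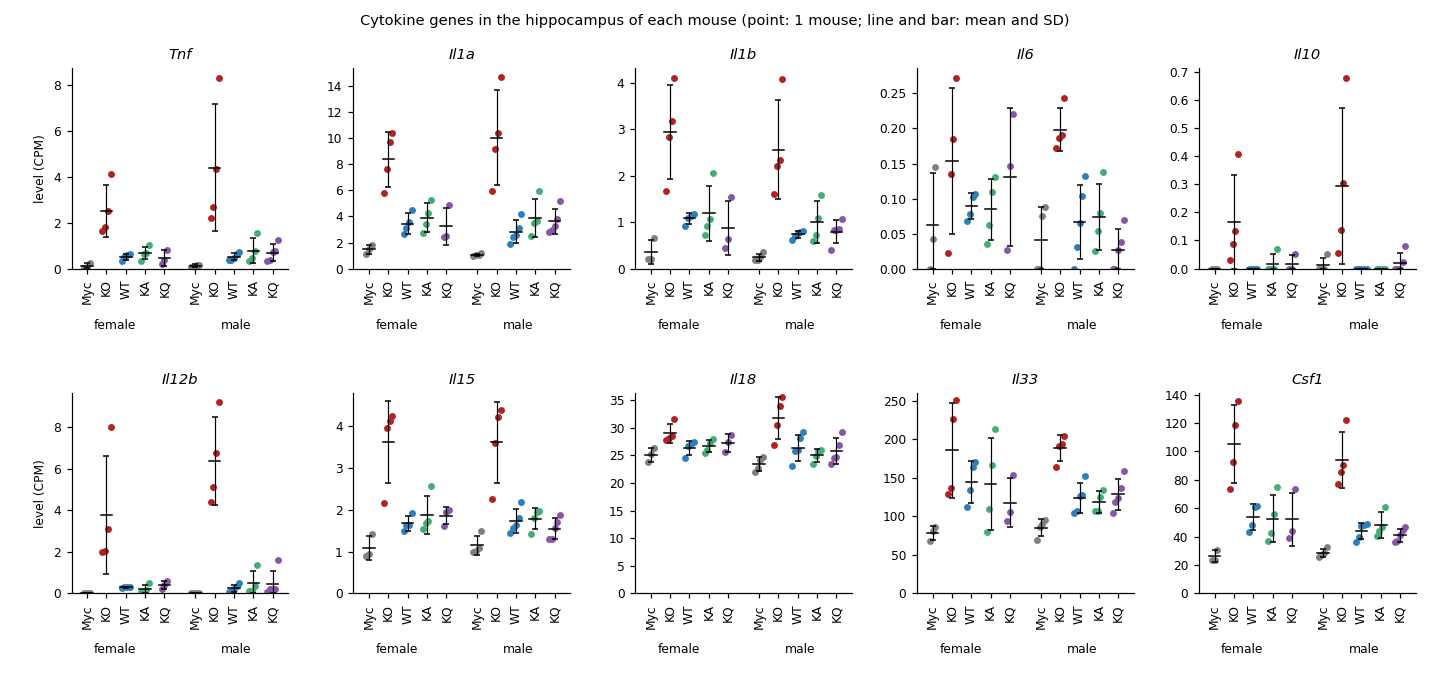
Level of each cytokine gene in CPM (vertical axis, from 0, with its own scale for each gene) in the 10 groups of sex and virus. Points are mice, and the line and bar are the mean and SD, with the bar stopped at 0. H2A.Z KO mice lie above all Myc mice for every gene in males and for every gene but Il6 in females.

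The comparison of H2A.Z KO with Myc asks how loss of neuronal H2A.Z relates to cytokine RNA. In females 8 of the 10 genes were higher in H2A.Z KO at an edgeR adjusted p under 0.05, against 18.1% of all genes called higher, and in males all 10 were higher, against 17.2%. None was lower in either sex. The median log2 fold change of the 10 genes was 2.25 in females and 2.71 in males, beside 0.00305 and 0.0269 for all genes tested, and 2.16 and 2.36 with Il10 and Il12b set to the lowest ratio their counts allow (the lower end of the 95% interval, or the bound where Myc mice had no count). For 9 genes in females every H2A.Z KO mouse lay above every Myc mouse, against 18.8% of all genes, and for 10 in males, against 15%.

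Tnf, the ligand of Tnfrsf1a and Tnfrsf1b, had the largest fold change of the genes with more than a few counts in Myc mice. It was at 0.266, 0.0791 and 0.0426 CPM in the Myc females while the H2A.Z KO females had 2.50, 1.81, 1.64 and 4.11 CPM. In males it was at 0.176, 0.0635, 0.088 and 0.178 CPM in Myc and at 2.70, 4.36, 8.32 and 2.20 CPM in H2A.Z KO. The groups did not overlap, and female mouse 34 and male mouse 21 were the highest H2A.Z KO mice of their sex. The fitted rise was 16.8-fold in females (log2 4.07 ± 0.64 SE, adjusted p = 5.33e-06) and 33.3-fold in males (5.06 ± 0.57, adjusted p = 7.89e-09).

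Il1a and Il1b encode the agonists of Il1r1. Il1a was at 1.81, 1.50 and 1.11 CPM in Myc females against 9.69, 7.61, 5.77 and 10.4 CPM with the deletion. In males it was at 1.06, 1.08, 0.938 and 1.17 CPM in Myc and at 9.14, 10.4, 14.7 and 5.96 CPM in H2A.Z KO. The Myc males lay within a narrow band and the lowest H2A.Z KO mouse of each sex was still well clear of the controls. Il1a rose 5.61-fold in females (log2 2.49 ± 0.33, adjusted p = 3.76e-07) and 9.47-fold in males (3.24 ± 0.31, adjusted p = 2.24e-10). Il1b, at 0.652, 0.198 and 0.213 CPM in Myc females and 4.12, 2.83, 1.67 and 3.19 CPM with the deletion, rose 7.76-fold (log2 2.96 ± 0.45, adjusted p = 3.16e-06). In males Il1b ran from 0.176 to 0.352 CPM in Myc and from 1.60 to 4.09 CPM in H2A.Z KO, a 10.4-fold rise (3.37 ± 0.42, adjusted p = 4.15e-08). Myc mouse 11 had the highest Tnf, Il1a, Il1b, Il6 and Csf1 of the 3 Myc females, and mouse 33 the lowest Tnf, Il1a and Il1b of the H2A.Z KO females.

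Il6, which signals through Il6ra and Il6st, stayed near the limit of detection. Its counts per mouse ran from 0 to 6 in Myc and from 1 to 10 in H2A.Z KO females, and from 0 to 3 and 4 to 9 in males. Levels in females overlapped, at 0.145, 0 and 0.0426 CPM in Myc and 0.135, 0.0223, 0.185 and 0.272 CPM with the deletion, and the difference did not pass the threshold (log2 1.05 ± 0.87, adjusted p = 0.375). In males all H2A.Z KO mice lay above all Myc mice, at 0.243, 0.191, 0.187 and 0.173 CPM against 0.0754, 0, 0.088 and 0 CPM, and the rise just passed it (log2 2.18 ± 0.82, adjusted p = 0.0392). That call was lost without H2A.Z KO male 3, 4 or 21 or Myc male 22 or 41, with an adjusted p of 0.0777, 0.0625, 0.0545, 0.11 and 0.12, and also with no filter on counts (0.05005).

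Il12b and Il10 had almost no counts in Myc mice, and with the deletion Il12b reached clear expression whereas Il10 stayed low. Il12b encodes the subunit that pairs with Il12a or Il23a to make cytokines that activate T and NK cells, and it had 1 count over all Myc females and 2 over all Myc males, against 564 and 932 counts in the H2A.Z KO mice. The females with the deletion were at 3.10, 2.01, 2.04 and 7.98 CPM and the males at 6.73, 5.13, 9.19 and 4.41 CPM, all far above the highest Myc mouse (0.0317 CPM). The ratio of Il12b counts, scaled for depth, was 337 (exact 95% interval 60.2 to 13319) in females and 484 (133 to 3999) in males, an interval that covers counting error only, and edgeR's adjusted p was 1.70e-05 and 2.00e-07. Il10, which restrains inflammation through Il10ra and Il10rb, had no count in any Myc female and 25 counts over the H2A.Z KO females, at 0.135, 0.0892, 0.0309 and 0.409 CPM. This made it at least 4.97-fold higher, taking 3 counts over the group as the floor (adjusted p = 0.0211). In males Il10 had 2 counts in Myc mouse 41, none in the other Myc mice, and 43 counts in H2A.Z KO at 0.0541, 0.136, 0.678 and 0.302 CPM, a ratio of 22.3 (interval 5.81 to 190, adjusted p = 0.00911). The call for Il10 in females was lost with DESeq2 (adjusted p = 0.0538) and without Myc mouse 11, 31 or 32 or H2A.Z KO mouse 34 (adjusted p = 0.0746, 0.0545, 0.0522 and 0.0649), and in males without H2A.Z KO mouse 21 (adjusted p = 0.0584).

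Il15 and Il18, which act on T and NK cells, differed in how far they moved. Il15 was at 0.942, 1.42 and 0.894 CPM in Myc females against 4.12, 3.95, 2.16 and 4.25 CPM with the deletion, a 3.34-fold rise (log2 1.74 ± 0.25, adjusted p = 1.22e-06). In males it went from 0.997 to 1.50 CPM in Myc to 2.25 to 4.37 CPM in H2A.Z KO, a 3.16-fold rise (1.66 ± 0.22, adjusted p = 2.03e-07). Mouse 33 in females and mouse 42 in males stood below the other H2A.Z KO mice of their sex for Il15 and yet above every Myc mouse. Il18 was already abundant in Myc mice and was at 31.6, 28.4, 28.2 and 27.8 CPM in females with the deletion against 26.4, 25.2 and 23.8 CPM in Myc. Although the mice did not overlap, its log2 difference of 0.21 ± 0.09 missed the threshold (adjusted p = 0.0686), and it passed with DESeq2 (adjusted p = 0.0289) and with the size factors of DESeq2 in edgeR (adjusted p = 0.042). In males Il18 rose 1.36-fold (log2 0.44 ± 0.08, adjusted p = 4.52e-05), from 21.9 to 24.7 CPM in Myc to 26.9 to 35.6 CPM in H2A.Z KO.

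Il33 and Csf1 were the genes with the largest difference in CPM. Il33, the ligand of Il1rl1, was at 80.6, 67.9 and 85.6 CPM in Myc females against 251, 226, 128 and 136 CPM with the deletion. Mice 13 and 14 were high and mice 33 and 34 lower, and all lay above the Myc females. It rose 2.38-fold in females (log2 1.25 ± 0.25, adjusted p = 0.000181) and 2.21-fold in males (1.15 ± 0.22, adjusted p = 0.00015), where H2A.Z KO mice ran from 164 to 204 CPM and Myc mice from 69.4 to 94.7 CPM. Csf1, the main ligand of the microglial receptor Csf1r, was at 30.9, 23.8 and 23.8 CPM in Myc females and at 136, 118, 73.4 and 92.7 CPM with the deletion, a 4-fold rise (log2 2.00 ± 0.23, adjusted p = 8.58e-08). In males it ran from 25.8 to 32.5 CPM in Myc and from 77.2 to 122 CPM in H2A.Z KO, a 3.30-fold rise (1.72 ± 0.21, adjusted p = 5.70e-08).

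The size of the H2A.Z KO difference did not itself differ detectably between the sexes for any member. As an interaction in edgeR, 0 of the 10 genes passed, 0 had an unadjusted p under 0.05 and DESeq2 called 0, against 0% of all genes called in edgeR. The estimates nearest the threshold were those of Il18 (female minus male log2 fold change -0.24 ± 0.12, adjusted p = 0.903) and Il1a (-0.75 ± 0.43, adjusted p = 0.944). For Tnf the interval is wide, at -0.98 ± 0.88, so that a sizeable difference could have gone unseen.

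Replacement asks whether cytokine RNA is lower when H2A.Z.1 is supplied with Cre. In males 9 of the 10 genes were lower than in H2A.Z KO with each of H2A.Z.1 WT, KA and KQ, against 12%, 9.94% and 12.7% of all genes called lower. In females 7 were lower with H2A.Z.1 WT, 6 with KA and 6 with KQ, against 9.17%, 9.62% and 7.63%. None was higher than in H2A.Z KO in any of the 6 comparisons, which share their H2A.Z KO mice within a sex. The median log2 fold change of the members ranged from -1.05 in female H2A.Z.1 KA to -1.66 in male H2A.Z.1 WT mice.

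Tnf, Il1a, Il1b, Il12b, Il15 and Csf1 were lower than in H2A.Z KO in all 6 comparisons. Tnf was at 0.650, 0.591, 0.502 and 0.320 CPM in H2A.Z.1 WT females, at 0.638, 1.03, 0.688 and 0.351 CPM in H2A.Z.1 KA females and at 0.833, 0.196 and 0.364 CPM in H2A.Z.1 KQ females. None of these mice reached the lowest H2A.Z KO female, and the log2 fold changes were -2.26 ± 0.48, -1.91 ± 0.47 and -2.43 ± 0.53 (adjusted p = 0.0012, 0.00527 and 0.00283). In males Tnf had medians of 0.469, 0.616 and 0.733 CPM, with ranges of 0.360 to 0.743 in H2A.Z.1 WT, 0.351 to 1.54 in KA and 0.324 to 1.26 in KQ. The male log2 fold changes were -3.08 ± 0.45, -2.50 ± 0.47 and -2.68 ± 0.44 (adjusted p = 3.98e-06, 0.000246 and 1.96e-05).

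Il12b fell the most of these genes. In H2A.Z.1 WT females it was at 0.286, 0.283, 0.274 and 0.285 CPM, in KA females at 0.177, 0.499, 0.0655 and 0.0877 CPM and in KQ females at 0.588, 0.220 and 0.416 CPM, all below the H2A.Z KO females. Its log2 fold change was -3.73 ± 0.75, -4.20 ± 0.79 and -3.20 ± 0.8 in females (adjusted p = 0.000902, 0.000705 and 0.00759) and -4.73 ± 0.71, -3.73 ± 0.72 and -3.93 ± 0.68 in males (adjusted p = 9.21e-06, 0.000436 and 5.49e-05). Even so, replacement mice had 27 to 71 counts of Il12b per group where Myc mice had 1 or 2. Csf1 fell by about as much in every replacement group, with log2 fold changes of -0.971, -0.997 and -1.01 in females and -1.09, -0.97 and -1.19 in males (WT, KA and KQ). Female H2A.Z.1 KA mouse 16 and KQ mouse 17 reached 74.7 and 73.4 CPM of Csf1, level with the lowest H2A.Z KO female.

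Il10, Il18, Il33 and Il6 moved less evenly. Il10 had 0 counts in all H2A.Z.1 WT mice and in all male KA mice, 2 counts in female KA, 2 in female KQ and 4 in male KQ mice. It was at least 8.24-fold lower than in H2A.Z KO in female WT, at least 18.3-fold lower in male WT and at least 15.5-fold lower in male KA mice, and the adjusted p in edgeR was 0.0142, 0.00133 and 0.00364. DESeq2 gave Il10 no adjusted p in female WT mice. In each of these 3 comparisons it gave 9 members an adjusted p, and it called 6, 8 and 8 of them. Il18 was lower in all 3 male groups (log2 -0.27 ± 0.08, -0.35 ± 0.08 and -0.30 ± 0.08) and passed in none of the female groups (-0.14 ± 0.08, -0.12 ± 0.08 and -0.09 ± 0.09). With the compared groups alone in edgeR, the Il18 call was lost in male WT and KQ mice (adjusted p = 0.0742 and 0.0789). In the edgeR fit Il33 passed only in male WT (-0.61 ± 0.21, adjusted p = 0.0372) and male KA mice (-0.67 ± 0.22, adjusted p = 0.036), while female replacement mice ran from 79.5 to 213 CPM and overlapped the H2A.Z KO females in each group. These calls of Il33 depended on the processing. Both were lost with no filter on counts (adjusted p = 0.0567 and 0.0583), and Il33 was called lower in female KQ mice with DESeq2 (0.0242), filterByExpr (0.049) or the number range in the model (0.0409), and in male KQ mice with DESeq2 (0.0305), filterByExpr (0.0415) or the compared groups alone (0.00833). Il6 passed only in male KQ mice (-2.90 ± 0.83, adjusted p = 0.0101), which had 4 counts in all. The difference between groups with and without a call was not tested for these genes.

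Some of these calls rested on single mice. In females Il10 with H2A.Z.1 WT was lost without H2A.Z KO mouse 34 (adjusted p = 0.0535), Il1b with KA without H2A.Z KO mouse 13 or KA mouse 36 (0.0656 and 0.0622), and Il1b, Il12b and Il15 with KQ without KQ mouse 37 (0.0503, 0.0705 and 0.0585). Calls were gained for Il10 with KA without KA mouse 15 (0.0362), for Il33 with KA without KA mouse 16 (0.042), and for Il33 with KQ without KQ mouse 17 or H2A.Z KO mouse 33 or 34 (0.025, 0.0247 and 0.0365). In males Il18 with WT was lost without H2A.Z KO mouse 4 (0.0855), and Il1b with KA and Il10 with KQ without H2A.Z KO mouse 21 (0.0568 and 0.113). Il33 in males was lost with WT without any of H2A.Z KO mice 3, 4 and 42 or WT mice 9, 10, 30 and 46 (0.052 to 0.0896), was lost with KA without any of H2A.Z KO mice 3, 4 and 42 or KA mice 25, 26 and 43 (0.0617 to 0.103), and was gained with KQ without KQ mouse 27 (0.0374). All these p-values are adjusted and from edgeR. Fitted on the compared groups alone, 0 members passed between H2A.Z.1 KQ and H2A.Z KO females, with an adjusted p of 0.0506 to 0.086 for the 6 genes called otherwise.

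**Figure D2:**
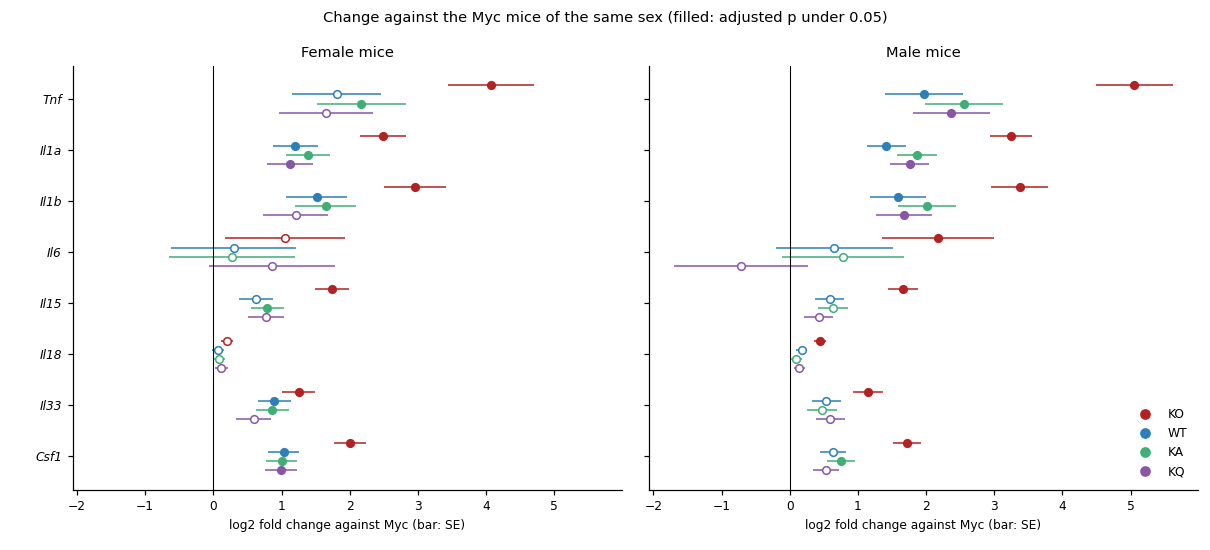
Log2 fold change against the Myc mice of the same sex (horizontal axis, bars SE) for the 8 cytokine genes with counts in most Myc mice, in H2A.Z KO and the 3 replacement groups, with filled points at an adjusted p under 0.05. The H2A.Z KO point is the farthest to the right for every gene, for example Tnf at 4.07 in females and 5.06 in males, and the replacement points lie mostly between it and 0.

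Replacement mice were not level with Myc mice. Against Myc, 4 members were higher in female H2A.Z.1 WT, 6 in KA and 2 in KQ mice (background 5.87%, 4.42% and 3.59% of all genes called higher), and 3, 5 and 4 in males (3.66%, 5.15% and 3.48%). None was lower. Il1a was higher than in Myc in all 6 groups, by log2 1.21 ± 0.32, 1.39 ± 0.32 and 1.13 ± 0.34 in females (adjusted p = 0.0165, 0.00681 and 0.0414) and 1.42 ± 0.29, 1.87 ± 0.3 and 1.76 ± 0.29 in males (adjusted p = 0.00167, 6.64e-05 and 0.000262). Il1b was higher in all but female KQ mice, and Tnf in the 3 male groups and in female KA mice. Csf1 was higher in the 3 female groups by log2 1.03, 1.005 and 0.99 and in male KA mice by 0.76, and its male WT and KQ values of 0.63 ± 0.19 and 0.53 ± 0.19 missed the threshold (adjusted p = 0.0503 and 0.115). In the same fit Il15 passed in female KA mice, Il33 in female WT and KA mice, Il12b in male KA and KQ mice, and Il6, Il10 and Il18 in none. DESeq2 called Il12b higher than in Myc in all 6 groups, the added ones at an adjusted p of 0.0187, 0.043 and 0.0119 in female WT, KA and KQ mice and 0.0166 in male WT mice. It also called Il15 in female KQ and male KA mice (0.0418 and 0.0419), Il33 in male KQ mice (0.0351), Tnf in female WT mice (0.0301) and Csf1 in male WT and KQ mice (0.0121 and 0.0445). The Il15 call in female KA mice was lost with no filter on counts (0.0589), and with the compared groups alone Il33 was lost in female KA mice (0.18) and gained in male WT, KA and KQ mice (0.0158, 0.016 and 0.0113).

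The counts against Myc turned on individual mice more than the others did. Without Myc mouse 32, the library that stood apart, 2, 1 and 0 members were higher in female WT, KA and KQ mice, and without Myc mouse 31 the counts were 1, 3 and 0. The WT count was also 2 without WT mouse 19 or 20, the KA count was 3 and 2 without KA mouse 15 or 16, and the KQ count was 0 without KQ mouse 17. In males the WT count was 1 without Myc mouse 22 or 23, and the KA count was 3 without Myc mouse 1 or KA mouse 5. The Il1a call in females was lost for WT without Myc mouse 31 or 32 (adjusted p = 0.0641 and 0.0896), for KA without Myc mouse 32 (0.0528) and for KQ without KQ mouse 17 or Myc mouse 31 or 32 (0.42, 0.118 and 0.165), whereas no mouse decided it in males. Tnf in male WT mice was lost without any 1 of the 4 Myc males or WT mouse 10 or 29 (0.0564 to 0.107). Il12b was lost in male KA mice without Myc mouse 1 or KA mouse 5 (0.0515 and 0.153) and in male KQ mice without any 1 of the 4 Myc males or KQ mouse 8 (0.0556 to 0.167). Csf1 was lost in male KA mice without Myc mouse 1 or 23 or KA mouse 5 (0.0524, 0.0561 and 0.106). The comparison of H2A.Z KO with Myc females kept 7 of the 10 genes without mouse 32, since Il10 was lost.

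KA and KQ mice were compared directly because the mutants differ in whether the lysines resemble the acetylated form. No member differed between them in either sex in edgeR or DESeq2, 0 had an unadjusted p under 0.05, and edgeR called 0% of all genes. Log2 differences (KA minus KQ) with the smallest errors were those of Il18 (-0.03 ± 0.09 in females and -0.04 ± 0.08 in males), Csf1 (0.02 ± 0.22 and 0.23 ± 0.19) and Il15 (0.02 ± 0.24 and 0.21 ± 0.21). For Tnf (0.52 ± 0.54 and 0.19 ± 0.45) and Il12b (-0.997 ± 0.88 and 0.20 ± 0.72) a difference of several fold would lie within the error, so that an equal level was not shown.

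Mice within a group differed, and the cytokine genes did so in sets. Among H2A.Z KO mice, female 34 had the highest Tnf, Il1a, Il6, Il10, Il12b and Il15, and male 21 the highest Tnf, Il1a, Il1b, Il10, Il12b and Il15. These mice also had the highest summed level of 10 T and NK cell markers of their sex, at 122 and 172 CPM, against 18.8 to 39.1 in the other H2A.Z KO females and 46.6 to 70.8 in the other males. Il33 and Csf1 followed another order. They were highest in females 13 and 14, which had the highest summed astrocyte markers (11756 and 10761 CPM, against 6417 and 6890 in mice 34 and 33), and male 4, with the highest astrocyte sum of the males (9601 CPM), had the highest Csf1 of the males and Il33 of 194 CPM, second to mouse 42. The summed microglial markers put the females in the same order as Il33 and Csf1, at 1260, 1187, 1034 and 782 CPM in mice 13, 14, 34 and 33, and were highest in mouse 4 of the males (1387 CPM). Mice 13 and 14 also had the highest B and plasma cell sums (365 and 277 CPM, against 76.8 and 9.50 in mice 34 and 33). The same held for monocyte and macrophage markers (65.3 and 62.3 CPM, against 53.3 and 18.1). Male 42, with the highest Il33 of the males, had their lowest microglial sum (802 CPM) and an astrocyte sum of 7149 CPM. This is a description of 8 mice, and the part of these cells in the differences was not tested.

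**Figure D3:**
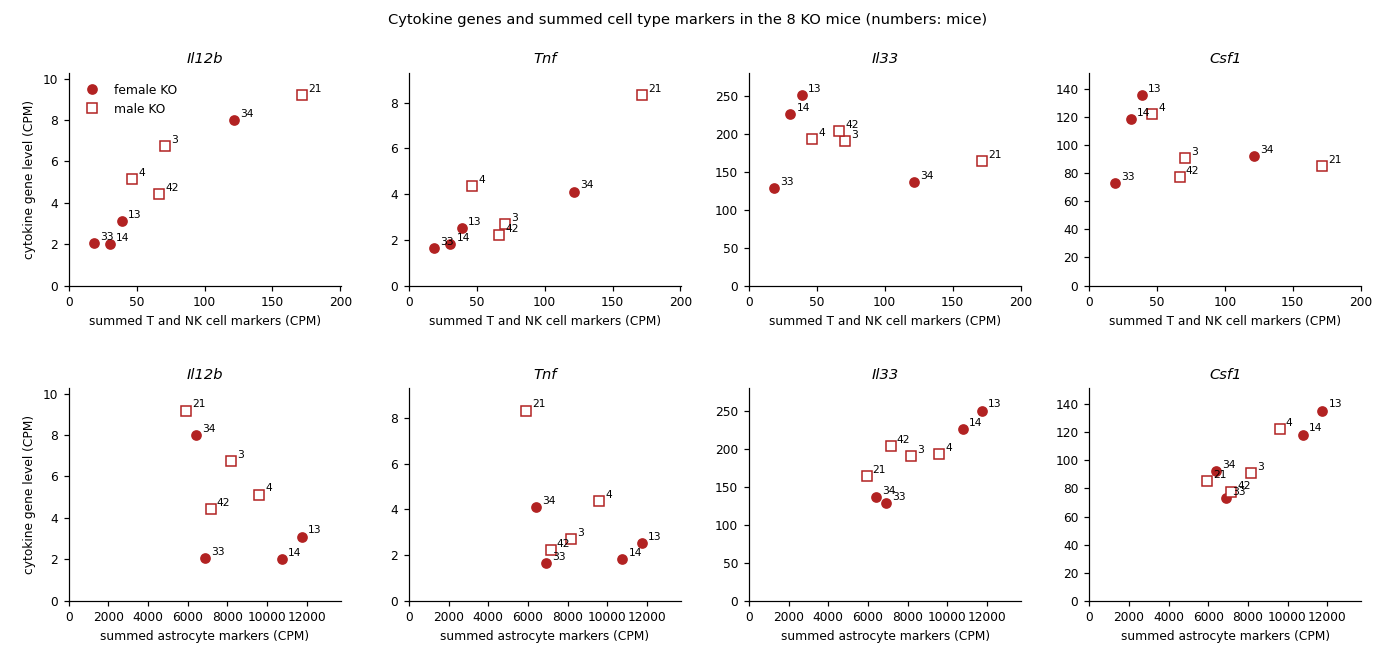
Level of Il12b, Tnf, Il33 and Csf1 (vertical axes, CPM) against the summed T and NK cell markers (upper row, CPM) or astrocyte markers (lower row, CPM) in the 8 H2A.Z KO mice, with filled circles for females, open squares for males and mouse numbers beside them. Il12b is highest in mice 34 and 21, with 122 and 172 CPM of T and NK cell markers, and Csf1 in mouse 13, with 11756 CPM of astrocyte markers.

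In the replacement groups the highest values of many genes came from few mice, and the 4 named here all had sample numbers of 1 to 20. Male KA mouse 5 was the highest of its group for 8 of the 10 genes, female KA mouse 16 for 7, female KQ mouse 17 for 7 and male KQ mouse 8 for 5. Male mouse 5 had 22.0 CPM and male mouse 8 had 17.0 CPM of T and NK cell markers, the highest of their groups. Il12b was at 1.35 CPM in mouse 5 and 1.60 CPM in mouse 8, against 0.101 to 0.367 and 0.0493 to 0.209 CPM in the other mice of these groups. Il33 and Csf1 were higher in all females numbered 1 to 20 than in those numbered 21 to 40 within each of the 4 groups with Cre. Il33 was at 251 and 226 against 128 and 136 CPM in H2A.Z KO, 164 and 171 against 112 and 134 CPM in WT, 167 and 213 against 79.5 and 109 CPM in KA, and 153 against 94.1 and 106 CPM in KQ mice. What the number ranges stand for was not given in the sources used here, and with the range in the model 8 members in females and 10 in males were called between H2A.Z KO and Myc.

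Markers of the cells that make cytokines moved together with the genes. Of 10 microglial markers, 9 were higher in H2A.Z KO than in Myc in each sex, and their summed level ran from 324 to 422 CPM in Myc females, 782 to 1260 in H2A.Z KO females and 509 to 815 in the female replacement groups, with 300 to 392, 802 to 1387 and 464 to 773 in males. Of 8 markers of monocytes and macrophages 6 were higher in each sex (female sums of 3.56 to 6.21 CPM in Myc and 18.1 to 65.3 CPM with the deletion, 3.22 to 6.09 and 39.5 to 70.9 in males). All 10 T and NK cell markers were higher in each sex (0.596 to 3.45 and 18.8 to 122 CPM in females, 0.44 to 1.09 and 46.6 to 172 in males). All 5 B and plasma cell markers were higher too (1.28 to 2.05 and 9.50 to 365 CPM in females, 1.23 to 3.99 and 66.7 to 174 in males). Neutrophil markers stayed at or below 0.93 CPM in sum in every mouse, and none of the 4 tested was called, with Ly6g and Elane too low to test.

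Among resident cells, 5 of 6 astrocyte markers were higher in H2A.Z KO in each sex (3613 to 4367 and 6417 to 11756 CPM in females, 3660 to 4016 and 5927 to 9601 in males), and 8 of 8 neuron markers in females and 7 of 8 in males were lower (6979 to 7310 and 2666 to 4875 CPM, 6873 to 7382 and 3330 to 5291 CPM). Of the 6 hippocampal neuron markers only 2 were called lower in each sex. Their sums ran from 849 to 871 CPM in Myc and 419 to 676 CPM in H2A.Z KO females. In males they ran from 826 to 968 and 448 to 765 CPM. Of 7 oligodendrocyte markers 3 were higher in females and 2 in males, and of 5 endothelial markers 5 and 3. All 7 choroid plexus markers were higher in females, with sums of 185 to 232 CPM in Myc and 339 to 5693 CPM in H2A.Z KO, and none was called in males. Without the 4 mice above 1000 CPM of Ttr, an alternative chosen after the data were seen, 8 members were again higher in female H2A.Z KO mice, with log2 fold changes of 4.47 for Tnf, 2.13 for Csf1 and 1.32 for Il33. Only mice 13 and 34 remained in that H2A.Z KO group. Mouse 33, which was left out, was the lowest H2A.Z KO female for Tnf, Il33 and Csf1. The part of the other cell types in the cytokine differences was not tested.

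Set against the summed microglial markers of the same mouse, the genes separated. Per 1000 CPM of these markers, Tnf was at 0.328 ± 0.266 CPM (SD) in Myc females and 2.39 ± 1.08 CPM with the deletion, and male mice had 0.383 ± 0.204 and 4.16 ± 2.61 CPM, with no overlap between the groups. Il1a in females was at 3.98 ± 0.49 and 7.89 ± 1.57 CPM, and the male values were 3.12 ± 0.41 and 9.56 ± 3.2 CPM, also without overlap. Il15, on the other hand, did not stand apart in females (3.00 ± 0.91 and 3.37 ± 0.56 CPM) as well as in males (3.36 ± 0.74 and 3.41 ± 0.63 CPM), and the groups overlapped. Il18 was lower by this measure, with 69.0 ± 5.7 and 28.0 ± 5.5 CPM in females, 68.6 ± 4.54 and 30.7 ± 3.85 CPM in males and no overlap, and Il33 overlapped between the groups. Csf1 was at 71.2 ± 3.69 and 97.7 ± 7.83 CPM in females, without overlap, and at 83.6 ± 11.5 and 89.3 ± 5.67 CPM in males, with overlap. These ratios describe bulk tissue, in which astrocytes and neurons also make some of these RNAs, and were not tested.

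**Figure D4:**
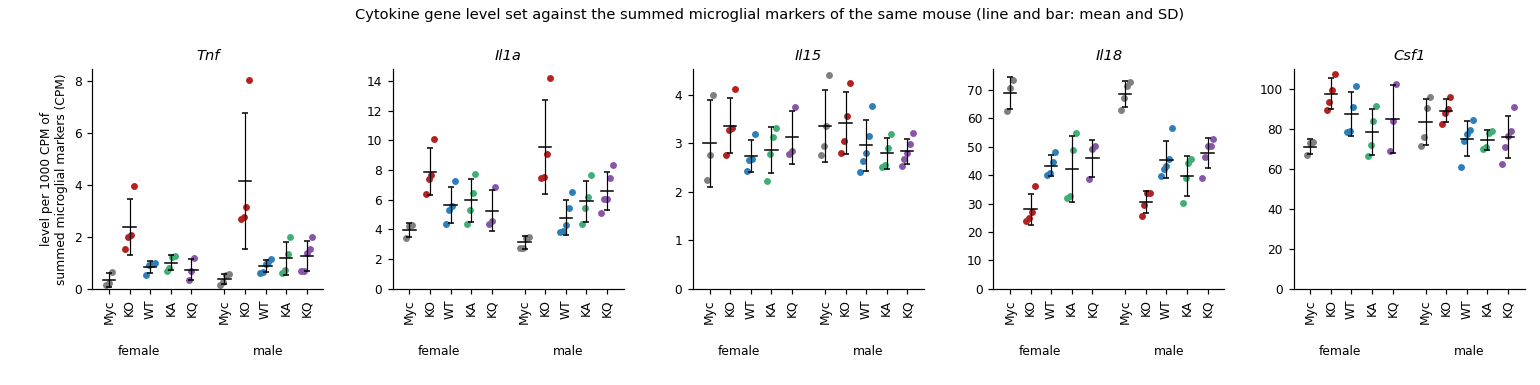
Level of Tnf, Il1a, Il15, Il18 and Csf1 per 1000 CPM of summed microglial markers of the same mouse (vertical axes, CPM, from 0) in the 10 groups, with points for mice and the mean and SD as line and bar. Tnf and Il1a stay higher in H2A.Z KO than in Myc mice, Il15 overlaps (means of 3.00 and 3.37 CPM in females) and Il18 is lower (69.0 and 28.0 CPM). The summed markers rise more with the deletion than Il18 does.

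The receptors of these cytokines rose with them. Of 17 receptor genes 15 were higher and 1 lower in H2A.Z KO females and 14 higher and 1 lower in males, with median log2 fold changes of 1.63 and 2.02. Of all genes 18.1% and 17.2% were called higher in these comparisons. The Tnf receptors Tnfrsf1a (2.45 ± 0.28 in females and 2.43 ± 0.25 in males) and Tnfrsf1b (2.49 ± 0.34 and 2.86 ± 0.31) rose in both sexes. The largest fold changes on the list were those of Il2rb (5.49 ± 0.88 and 7.09 ± 0.81), Il18r1 (4.54 ± 0.76 and 7.43 ± 0.81), Il18rap (4.25 ± 0.81 and 7.27 ± 0.85), Il2rg (4.02 ± 0.64 and 5.41 ± 0.61) and Il12rb1 (3.23 ± 0.57 and 5.00 ± 0.53). Csf1r (1.58 ± 0.2 and 1.73 ± 0.18), which is also one of the microglial markers, Il10ra (2.43 ± 0.32 and 3.13 ± 0.3), Il15ra (1.31 ± 0.19 and 1.63 ± 0.18) and Il6ra (1.00 ± 0.16 and 1.24 ± 0.15) rose less. By contrast Il12rb2 fell (-0.36 ± 0.11 and -0.42 ± 0.1), and Il1rap did not pass (0.14 ± 0.15 and -0.01 ± 0.14), while Il1r1 passed in females alone (0.78 ± 0.28, adjusted p = 0.0261, and 0.33 ± 0.25, adjusted p = 0.351).

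All 4 antagonists and decoys were higher in each sex. Il1rn, which blocks Il1r1, rose by log2 4.20 ± 0.56 and 6.02 ± 0.54, the decoy receptor Il1r2 by 2.11 ± 0.45 and 4.26 ± 0.48, Il18bp, which binds Il18, by 1.64 ± 0.37 and 2.60 ± 0.34, and Sigirr by 1.08 ± 0.24 and 1.19 ± 0.22. Of 14 partner subunits and related ligands tested, 6 were higher and 2 lower in females and 6 higher and 1 lower in males. Ebi3 (2.17 ± 0.31 and 2.56 ± 0.28) and Il27 (4.08 ± 0.73 and 4.57 ± 0.61), which pair with each other, and Ltb (3.60 ± 0.65 and 4.49 ± 0.59) rose, whereas Il34, the neuronal ligand of Csf1r, fell (-0.67 ± 0.14 and -0.65 ± 0.13). Ifng, which activates macrophages and microglia, had 1 and 0 counts over the Myc females and males and 121 and 465 over the H2A.Z KO mice (adjusted p = 0.0061 and 1.70e-05). The partners of Il12b did not pass, at 0.30 ± 0.44 and -0.16 ± 0.39 for Il12a and 0.49 ± 0.96 and 0.38 ± 0.73 for Il23a.

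Genes for processing and release of cytokines were higher without exception, at 14 of 14 in each sex, with medians of 2.44 and 3.10. They included the inflammasome sensor Naip2 (2.94 ± 0.31 and 3.45 ± 0.28), Pycard (2.63 ± 0.32 and 3.20 ± 0.29), which couples sensors to caspase-1, Casp8 (2.05 ± 0.25 and 2.51 ± 0.23), and Adam17 (1.21 ± 0.14 and 1.31 ± 0.13), which cuts Tnf from the cell surface. Of 25 signal transduction genes 19 were higher in females and 18 in males, led by Stat5a (2.25 ± 0.26 and 2.11 ± 0.22), Stat3 (1.43 ± 0.17 and 1.40 ± 0.15), Jak3 (1.77 ± 0.22 and 2.08 ± 0.2) and Ripk1 (1.20 ± 0.15 and 1.39 ± 0.14), and none was lower. Of 16 feedback and target genes 14 and 15 were higher, including Nfkbia (1.15 ± 0.14 and 1.05 ± 0.13), which holds NF-kB in the cytoplasm, the adhesion molecules Icam1 (3.53 ± 0.49 and 3.42 ± 0.43) and Vcam1 (2.35 ± 0.33 and 2.56 ± 0.3), and Zc3h12a (2.09 ± 0.33 and 2.43 ± 0.3), a nuclease that degrades cytokine RNA.

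With replacement most of these genes were lower than in H2A.Z KO. In females 14, 13 and 13 of the 17 receptors were lower with WT, KA and KQ, as were 12, 12 and 11 of the 14 genes of maturation and release and 17, 14 and 17 of the 25 signal transduction genes, against 9.17%, 9.62% and 7.63% of all genes. In males the counts were 14, 14 and 15 receptors, 14, 13 and 13 genes of maturation and release and 19, 18 and 19 signal transduction genes, against 12%, 9.94% and 12.7%. Fewer of the 14 partner subunits and related ligands tested were lower, at 5, 4 and 5 in females and 6, 6 and 6 in males. In each male group 1 of them was higher. Between KA and KQ none of the genes on the lists was called in either sex.

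**Figure D5:**
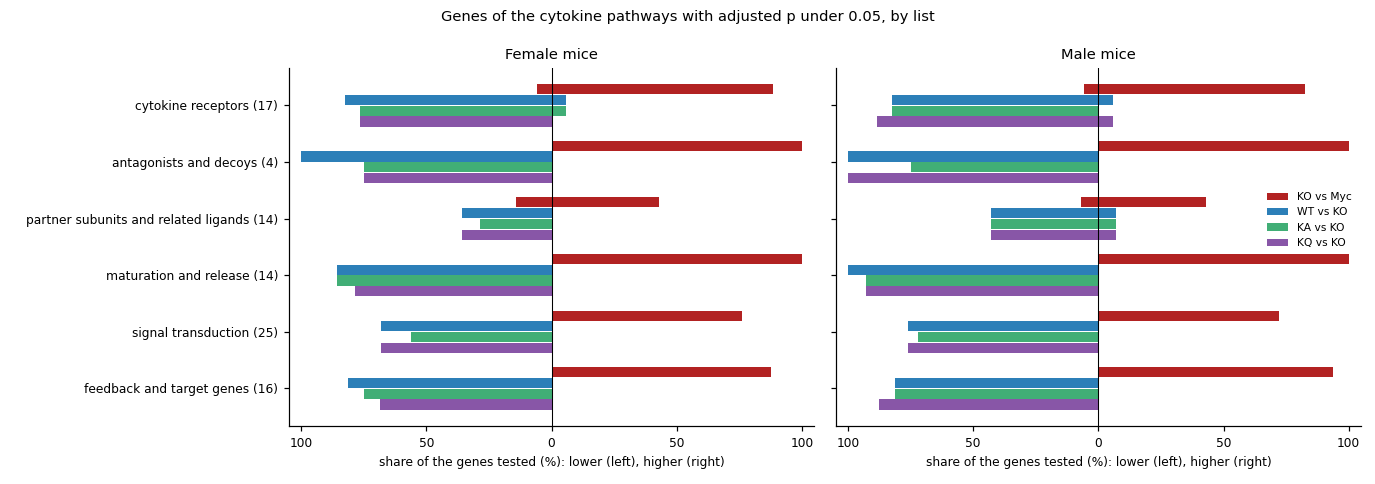
Share of each list of cytokine pathway genes (number tested in parentheses) with an adjusted p under 0.05, higher to the right and lower to the left, for H2A.Z KO against Myc and for the 3 replacement groups against H2A.Z KO, by sex. All 14 genes of maturation and release are higher in H2A.Z KO mice of both sexes, and partner subunits and related ligands have the smallest share, 6 of 14.

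Genes with the group profile nearest to that of a member were found by the root-mean-square difference of centred mean log2 CPM over the 10 groups, for the members called in both sexes. For Tnf they were BE692007, Gbp7 and Tap1, at 0.196, 0.197 and 0.208 log2 units, against a range of 4.59 over the groups for Tnf itself. For Il12b they were Tgtp2, Ubd and Gbp8 (0.281 to 0.298, range 6.62). For Il1a they were Runx1, Glipr1 and Dennd1c (0.0997 to 0.114, range 3.11), and for Il1b Ptafr, Cnr2 and Ncf4 (0.113 to 0.147, range 3.30). Il10 was nearest to Ckap2l, Rrm2 and Tpx2 (0.171 to 0.197, range 2.29), Il15 to B4galt1, Ehd4 and Tep1 (0.0631 to 0.0698, range 1.67), Il33 to Rasgrp3, Gltp and Erbin (0.0471 to 0.0692, range 1.27) and Csf1 to Ahnak, Cpq and Tcn2 (0.0612 to 0.0657, range 1.97). Outside H2A.Z KO, Il10 had at most 4 counts in all per group, so its profile and neighbours rest mainly on the H2A.Z KO groups.

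In GRCm39 with GENCODE models, Tnf spans 35418357 to 35420983 on chromosome 17, Il1a 129140291 to 129152098 and Il1b 129206490 to 129213059 on chromosome 2, and Il6 30218112 to 30224979 on chromosome 5. Il10 spans 130947581 to 130952711 on chromosome 1, Il12b 44290808 to 44305505 on chromosome 11, Il15 83054226 to 83129874 on chromosome 8 and Il18 50466081 to 50493633 on chromosome 9. Il33 spans 29902483 to 29938933 on chromosome 19 and Csf1 107648364 to 107667806 on chromosome 3. Exons of 5 members overlap an annotated gene on the other strand, by 477 bases for Il1a (Gm14023), 95 for Il1b (Il1bos), 367 for Il15 (9530004M14Rik), 159 for Il33 (Gm41832) and 159 for Csf1 (Gm40121). Whether the counting used strand was not given in the sources used here, so that reads on these bases cannot be told apart. The same difference between H2A.Z KO and Myc was examined within ranges of the sample number, 1 to 20 and 21 to 40 in females and also 41 to 46 in males. A range held only 1 or 2 mice of either group, with 1 Myc mouse of each sex in range 1 to 20. Males numbered 21 to 40 included 1 H2A.Z KO mouse, and those numbered 41 to 46 included 1 H2A.Z KO and 1 Myc mouse. Differences within a range were not tested. The log2 difference of mean levels was above 0 for all 10 genes in every range, except for Il6 in females numbered 1 to 20 (-0.72). For Tnf it was 2.76 and 4.53 in females and 3.91, 6.0 and 3.28 in males, and for Csf1 2.03 and 1.79 in females and 1.95, 1.66 and 1.25 in males.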

How the data were processed

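Per the methods, the authors mapped read pairs with Rsubread to GRCm39 and assigned them to genes with featureCounts, and the raw counts per gene and mouse that they deposited were used for every value. A second deposited table, of normalized values, was not used. Genes with 20 or more counts summed over the 40 mice were kept (28449 of 40853). TMM factors were used, and edgeR 4.0.16 (R 4.3.3) estimated 10 group means in its quasi-likelihood model with robust dispersions. P-values were adjusted over all genes tested by the method of Benjamini and Hochberg, and genes under 0.05 were called whatever their fold change. SE of a log2 fold change is its size divided by the square root of F. Intervals of count ratios are exact at 95% and a count of 0 was set to a floor of 3 counts over the group. Alternatives were DESeq2 1.42.0, its size factors in edgeR, filterByExpr, no filter, the compared groups alone, the range of the sample number as a covariate, leaving out each mouse, and, chosen after the data were seen, leaving out mice above 1000 CPM of Ttr. All members are named. All receptors may be named and of other lists up to 4 genes, those with the smallest larger p of the sexes in H2A.Z KO against Myc, while Il12a, Il23a and Ifng were chosen after their values were seen. Profile neighbours are the 3 nearest genes with a mean of at least 1 CPM. The members and lists were chosen with earlier results of these data known. The fits were tested on simulated data. Mice are separate animals, and totals ran from 24342921 to 45982772 counts. Gene models are from GENCODE on GRCm39, and upstream sequences from RefSeq (GRCm38.p6).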

Additional observations from a re-analysis of the deposited data

Results flagged for a closer look

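Of 80 sets of a member in a group of 4 or 5 mice, 6 had a mouse whose gap to the nearest other mouse exceeded the Dixon limit, where chance gives about 1 in 20. Il10 stood apart in female H2A.Z.1 KA mouse 15 (0.0709 CPM, 2 counts) and in male Myc mouse 41 (0.0507 CPM, 2 counts), in both cases against 0 counts in the other mice. With 0 counts in all other mice the gap takes up the whole range, so the 1 in 20 does not apply to these sets. Il10 in female and male H2A.Z.1 WT and in male KA mice had 0 counts throughout and could not be flagged. Il12b was at 1.60 CPM in male H2A.Z.1 KQ mouse 8, against 0.209 CPM in the next mouse. Il15 was at 2.16 CPM in female H2A.Z KO mouse 33, below 3.95 CPM in the next mouse, and at 1.50 CPM in male Myc mouse 41, above 1.08 CPM. Il18 was at 31.6 CPM in female H2A.Z KO mouse 13, above 28.4 CPM in the next mouse.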

How the results depend on the processing

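No member changed direction with a call under any alternative. The number of members called between H2A.Z KO and Myc was 8 to 9 in females and 9 to 10 in males under the other settings, although the 8 called by DESeq2 in females held Il18 and not Il10, and 7 to 8 and 8 to 10 without 1 mouse. Against H2A.Z KO it was 6 to 7, 5 to 7 and 3 to 7 in female WT, KA and KQ mice and 7 to 9, 8 to 9 and 8 to 10 in males without 1 mouse, and 0 in female KQ mice with the compared groups alone. Against Myc it moved most. Without 1 mouse it was 1 to 5, 1 to 6 and 0 to 3 in females and 1 to 4, 3 to 6 and 3 to 4 in males. With the compared groups alone it was 1 in female KA, 0 in female KQ and 6 in male WT mice. DESeq2 called 4 in female KQ and 5 in male WT mice. In female KQ mice it was 1 with no filter on counts, 4 with the range of the sample number in the model and 0 without the mice above 1000 CPM of Ttr. The cause of these changes was not tested, although the fit of compared groups alone rests on fewer mice. KA against KQ and the difference between sexes gave 0 under every setting run. For single members, 1317 values without 1 mouse and 989 under other settings kept their side of the threshold, 82 and 26 lost a call and 11 and 35 gained one. Members that a setting did not test or gave no adjusted p were left out of these counts. No paired analysis was possible because each sample number belongs to 1 mouse and groups share none. Depth limited Il6, Il10 and Il12b, with 0 to 9 counts per mouse for Il6 outside H2A.Z KO.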
